A study of Mus musculus with 6 samples.

Results

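The enzymes that build, elongate and desaturate fatty acids were examined in B16F10 cells, a mouse melanoma line, infected with a scramble shRNA (shCtr, n = 3) or with an shRNA against Osgep (shOSGEP, n = 3). The members were 10 genes chosen by name: Acly, Acaca, Acacb, Fasn, Elovl5, Elovl6, Scd1, Scd2, Fads1 and Fads2. All 10 were found among the 55487 genes of the count table, and all 10 were among the 12669 genes with enough counts to be tested. Osgep encodes the catalytic subunit of KEOPS, which places the t6A modification on tRNAs, so the comparison asked how transcript levels of these enzymes differ when that enzyme is depleted.

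Both groups were B16F10 cells transduced with a lentiviral hairpin and selected with puromycin, and the 3 libraries of a group came from separate infections. The medium held 10% FBS in both groups, a source of lipids from outside the cell. Only the hairpin numbered 2 by the study was sequenced in the shOSGEP group, and it is a knockdown in 1 cell line rather than a deletion. The sequence listed for that hairpin, shown because it defines the shOSGEP group, matched the main Osgep transcript once and in full, at bases 601 to 641, inside the coding sequence.
OSGEP#2: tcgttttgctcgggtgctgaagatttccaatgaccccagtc
The longest run of letters it shared with the main transcript of a member was 8 bases for Fads2 and at most 11 bases, for Scd2.

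Fatty acid synthesis starts from citrate, which ATP citrate lyase (Acly) splits in the cytosol to give acetyl-CoA. Acetyl-CoA carboxylase turns this into malonyl-CoA, and fatty acid synthase joins the units into palmitate. Elongases then add carbons and desaturases add double bonds, which set the fluidity of membranes and supply precursors of signalling lipids. Many of these genes are known targets of the SREBP transcription factors, which respond to the sterol and lipid supply of the cell.

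Promoters are shown for the members whose level was lower in shOSGEP in every comparison of libraries with the same replicate number and that had an entry in the RefSeq promoter table. The table held 7 of the 10 members, with no entry for Scd1, Scd2 or Fads1. Each window runs from 250 bases before to 50 bases after the start (GRCm38.p6), and capitals mark CCAAT boxes (CCAAT) and GC boxes (GGGCGG) on either strand. The windows are chr11:120824498-120824797 (minus strand) for Fasn, chr11:100527951-100528250 (minus strand) for Acly, chr3:129532136-129532435 (plus strand) for Elovl6 and chr19:10101454-10101753 (minus strand) for Fads2.
Fasn: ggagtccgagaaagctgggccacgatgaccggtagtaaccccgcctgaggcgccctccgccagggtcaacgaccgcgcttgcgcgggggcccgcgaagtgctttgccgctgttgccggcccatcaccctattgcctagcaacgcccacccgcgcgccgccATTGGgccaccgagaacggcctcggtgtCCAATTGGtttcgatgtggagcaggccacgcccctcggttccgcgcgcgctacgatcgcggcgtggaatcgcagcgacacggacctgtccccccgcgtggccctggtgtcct
Acly: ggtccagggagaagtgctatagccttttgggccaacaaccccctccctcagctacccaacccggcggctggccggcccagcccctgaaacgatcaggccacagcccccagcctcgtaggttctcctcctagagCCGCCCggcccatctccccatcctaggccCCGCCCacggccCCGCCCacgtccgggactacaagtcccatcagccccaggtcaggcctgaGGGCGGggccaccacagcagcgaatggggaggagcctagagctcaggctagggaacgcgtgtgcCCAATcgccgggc
Elovl6: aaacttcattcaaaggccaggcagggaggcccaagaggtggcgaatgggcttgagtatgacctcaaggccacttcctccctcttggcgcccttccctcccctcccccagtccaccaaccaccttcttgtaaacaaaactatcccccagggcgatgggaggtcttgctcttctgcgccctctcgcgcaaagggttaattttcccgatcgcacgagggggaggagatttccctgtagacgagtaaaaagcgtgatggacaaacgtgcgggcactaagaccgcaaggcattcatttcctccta
Fads2: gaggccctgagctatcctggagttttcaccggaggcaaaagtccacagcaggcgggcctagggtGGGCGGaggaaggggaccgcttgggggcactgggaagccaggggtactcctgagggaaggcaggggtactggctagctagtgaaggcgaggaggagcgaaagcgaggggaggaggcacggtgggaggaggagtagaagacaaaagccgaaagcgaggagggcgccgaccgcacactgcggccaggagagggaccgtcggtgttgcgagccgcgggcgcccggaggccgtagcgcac
The Fasn window held 3 CCAAT boxes, of which a pair on opposite strands overlapped. The Acly window held 4 GC boxes and 1 CCAAT box, the Fads2 window 1 GC box, and the Elovl6 window neither motif. Over the 7 members, 4 windows held a CCAAT box and 2 a GC box, against 37.4% and 35.7% of all 32851 promoters in the table. The windows of Acaca (chr11:84195188-84195487) and Acacb (chr5:114165268-114165567) lay inside these genes, past the gene starts given below. The letters TCACNCCAC, a form of the sterol regulatory element, were in 0 of the 7 windows and in 1.24% of all promoters. The E-box CACGTG was in 1 of the 7, that of Elovl5, and in 7.15% of all promoters.

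The libraries held between 18915587 and 29487384 counts. Replicate 2 stood apart in shCtr by its composition and in both groups by its level of Osgep. The TMM factor, which scales a library for its composition, was 0.690 in shCtr replicate 2 and between 1.04 and 1.14 in the others. Mitochondrial genes took 0.585% of the counts of shCtr replicate 2 against 1.30% to 4.75% elsewhere. On both measures shOSGEP replicate 2 lay within the range of the others, at 1.07 and 1.71%. Osgep was measured at 20.6, 58.6 and 21.8 CPM in shCtr (CPM are counts scaled to the size of the library, after TMM) and at 4.28, 0.542 and 5.52 CPM in shOSGEP, in order of replicate number, so that the replicate 2 libraries also held the highest and the lowest level of the target. All 7 melanocyte markers were expressed, with a summed level of 17038 to 29599 CPM in shCtr and 3551 to 18083 CPM in shOSGEP. In bulk samples fewer cells of a type and less RNA per cell cannot be told apart, and the part of this difference in the results was not tested. Of the other cells that make fatty acids, adipocyte markers were near 0: 2 of 4 had no count in any library, and the highest count was 24, for Plin1. The Log2FC of each named gene is therefore given with and without replicate 2.

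In shOSGEP cells the mean level was lower for 9 of the 10 enzymes, and none of these differences passed the test. The median Log2FC (log2 fold change of shOSGEP against shCtr) of the members was -0.68, against -0.03 over all genes tested. A Log2FC under 0 was found for 52.7% of all genes, against 9 of the 10 members, and a Log2FC under -0.5 for 18.3% of all genes, against 6 of the 10 members (Acly, Fasn, Elovl6, Scd2, Fads1 and Fads2). Elovl5 was the member with a higher mean, and Acacb had a Log2FC of -0.00.

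By edgeR's quasi-likelihood test, adjusted after Benjamini-Hochberg, 0 of the 10 members had an adjusted p under 0.05 (0% of all genes did), and every adjusted p of the members was 1.00. The target Osgep had a Log2FC of -3.29 (SE 0.876, unadjusted p = 0.00524), and its adjusted p in this test was 0.9997. Without replicate 2 the Log2FC of Osgep was -2.11. No member had an unadjusted p under 0.05, so 0 of the 10 passed the threshold of the study (Log2FC beyond 0.5 in either direction and unadjusted p under 0.05), which 256 genes passed. These were 2.02% of the genes tested, and those lower in shOSGEP were 0.426%. DESeq2 also called 0 of the 10 by either threshold. Of all 12669 genes it called 370 at the threshold of the study, with 120 of them lower. At an adjusted p under 0.05 it called 14 genes, Osgep among them (adjusted p = 0.0386 in DESeq2). The CPM values of the groups overlapped for all 10 members, whereas they were apart for 6.36% of all genes and apart with shOSGEP lower for 2.87%.

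**Figure D1:**
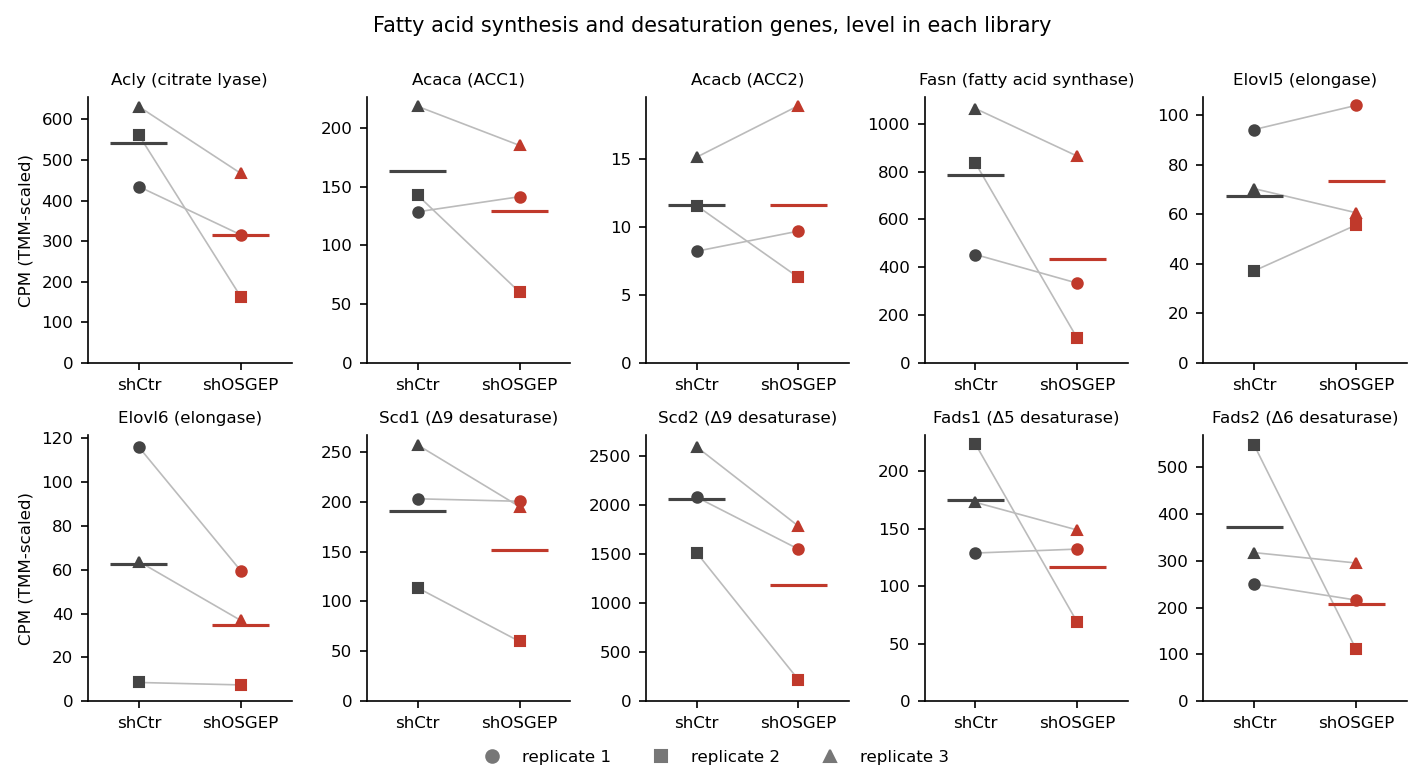
Level of each member in each library, in CPM after TMM scaling, on axes that start at 0. Points are libraries, the symbol gives the replicate number, grey lines join same-numbered libraries and horizontal bars are group means (n = 3). The square of shOSGEP replicate 2 is the lowest point of its panel for every member except Elovl5, where that place is held by shCtr replicate 2.

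Acly, on the minus strand of chromosome 11 (100476353-100528000, GRCm38), feeds the pathway with acetyl-CoA. It had shCtr levels of 434, 561 and 631 CPM and shOSGEP levels of 316, 164 and 467 CPM. The highest shOSGEP library lay above the lowest shCtr library, so the groups overlapped by 1 library on each side. The Log2FC was -0.78 (SE 0.487), with an unadjusted p of 0.147 in edgeR and p = 0.2 in the exact permutation test, for which 3 libraries against 3 cannot go below 0.1 (two-sided). Without the replicate 2 libraries the Log2FC was -0.44.

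Acetyl-CoA carboxylase is encoded by Acaca, the cytosolic form that supplies synthesis, and by Acacb, the form at the mitochondrial surface that restrains fatty acid oxidation. Acaca (chromosome 11, 84129672-84401651, plus strand) had shCtr levels of 129, 143 and 218 CPM and shOSGEP levels of 141, 60.3 and 185 CPM. Acacb (chromosome 5, 114146535-114250761, plus strand) was far less abundant, at 8.24, 11.6 and 15.2 CPM in shCtr and 9.72, 6.32 and 18.96 CPM in shOSGEP. For both genes shOSGEP replicate 2 was the lowest library and the other shOSGEP libraries lay within or above the shCtr range. The Log2FC was -0.34 (SE 0.502, unadjusted p = 0.517 in edgeR) for Acaca and -0.00 (SE 0.545, unadjusted p = 0.999 in edgeR) for Acacb. Without replicate 2 these were -0.08 and 0.30. The Acaca value is uncertain because 56.8% of the 31-base words of its main transcript are also found in the transcript of the pseudogene Gm5182.

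Fasn, the synthase that makes palmitate (chromosome 11, 120805846-120824547, minus strand), had shCtr levels of 453, 835 and 1063 CPM and shOSGEP levels of 334, 104 and 864 CPM. The spread within shOSGEP was wider than the distance between the groups, with an 8.32-fold range among its 3 libraries against 2.34-fold in shCtr. The means were 784 ± 308 CPM in shCtr and 434 ± 390 CPM in shOSGEP (SD, n = 3). The Log2FC was -0.85 (SE 0.740), with an unadjusted p of 0.281 in edgeR and p = 0.3 in the exact permutation test. In the same-numbered libraries Fasn was 1.36-fold, 8.04-fold and 1.23-fold lower in shOSGEP for replicates 1, 2 and 3. Without replicate 2 the Log2FC was -0.33.

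Of the elongases, Elovl6 extends palmitate and palmitoleate, and Elovl5 extends polyunsaturated chains. Elovl6 (chromosome 3, 129532355-129638495, plus strand) had shCtr levels of 116, 8.55 and 63.8 CPM and shOSGEP levels of 59.6, 7.44 and 36.9 CPM. Its 3 shCtr libraries covered a 13.6-fold range, the widest of any member in either group, and replicate 2 was the lowest library of each group. The Log2FC was -0.86 (SE 0.954, unadjusted p = 0.394 in edgeR). Elovl6 was the only member for which the replicate 2 comparison was the smallest of the 3 differences and all 3 were negative, with log2 ratios of -0.96, -0.20 and -0.79. The Log2FC was -0.90 without replicate 2, but -0.06 without shCtr replicate 1 alone and -0.38 without shOSGEP replicate 2 alone, so it too depended on single libraries. Of its 31-base words, 7.06% are shared with other transcripts, chiefly the pseudogene Gm11295, which had no count, and 34 bases of its exons overlap the antisense gene Gm35986, which had 4 counts in all.

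Elovl5 (chromosome 9, 77917364-77984519, plus strand) had shCtr levels of 94.1, 37.2 and 70.3 CPM and shOSGEP levels of 104, 55.6 and 60.6 CPM. The 2 sets of values were interleaved. The Log2FC was 0.13 (SE 0.486, unadjusted p = 0.801 in edgeR), and without replicate 2 it was -0.00.

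Stearoyl-CoA desaturases place the first double bond into saturated chains, giving oleate and palmitoleate. Scd2, the form abundant outside the liver (chromosome 19, 44293674-44306864, plus strand), had shCtr levels of 2079, 1514 and 2591 CPM and shOSGEP levels of 1550, 219 and 1784 CPM. Its shOSGEP replicate 2 library stood far below the other 5, while the remaining shOSGEP libraries were above the lowest shCtr library. The Log2FC was -0.80 (SE 0.736, unadjusted p = 0.308 in edgeR, p = 0.3 in the exact permutation test). In same-numbered libraries Scd2 was 1.34-fold, 6.90-fold and 1.45-fold lower in shOSGEP, and without replicate 2 the Log2FC was -0.48.

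Scd1 (chromosome 19, 44394455-44407879, minus strand) had shCtr levels of 203, 114 and 257 CPM and shOSGEP levels of 200, 59.9 and 195 CPM. Both replicate 2 libraries were the lowest of their group, and the groups overlapped. The Log2FC was -0.33 (SE 0.559, unadjusted p = 0.568 in edgeR), and -0.22 without replicate 2. Of the 31-base words of their main transcripts, Scd1 shared 8.30% and Scd2 6.86% with other genes, chiefly Scd3, which had at most 6 counts in any library.

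The front-end desaturases Fads1 and Fads2 act in turn with Elovl5 to make arachidonate and related polyunsaturated fatty acids, with Fads2 at the first step. Fads2 (chromosome 19, 10062765-10101746, minus strand) had shCtr levels of 250, 547 and 318 CPM and shOSGEP levels of 216, 111 and 295 CPM. Fads1 (chromosome 19, 10182888-10196877, plus strand) had shCtr levels of 129, 223 and 173 CPM and shOSGEP levels of 132, 68.6 and 149 CPM. For both genes replicate 2 held the highest shCtr and the lowest shOSGEP library. The Log2FC was -0.84 (SE 0.515, unadjusted p = 0.140 in edgeR) for Fads2 and -0.59 (SE 0.449, unadjusted p = 0.226 in edgeR) for Fads1. The exact permutation test gave p = 0.2 and p = 0.3. Without replicate 2 the values were -0.15 and -0.10.

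The same-numbered comparisons show which libraries carried these differences. The median log2 ratio of the 10 members was -0.11 for replicate 1, -1.47 for replicate 2 and -0.27 for replicate 3, where the medians of all genes were -0.03, 0.09 and -0.01. The level was lower in shOSGEP for 6, 9 and 9 of the 10 members, against 53.3%, 47.6% and 51.7% of all genes. It was lower in all 3 same-numbered comparisons for 6 members (Acly, Fasn, Elovl6, Scd1, Scd2 and Fads2), against 17.2% of all genes tested. In replicates 1 and 3 together the level was lower in both comparisons for the same count, 6 of the 10, against 32.5% of all genes.

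**Figure D2:**
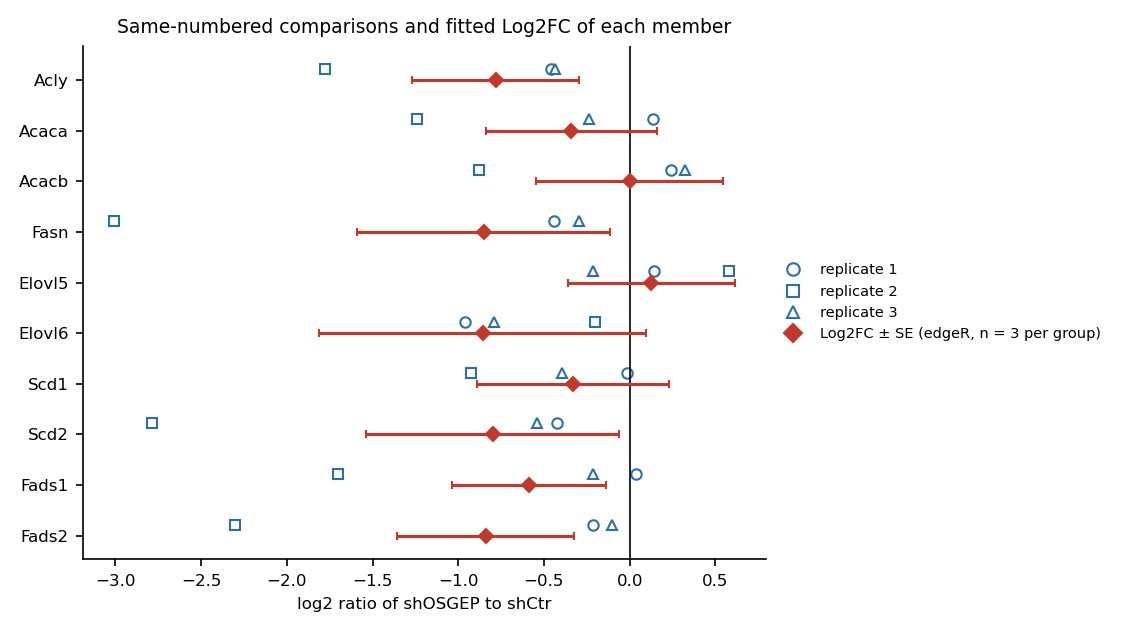
Log2 ratio of shOSGEP to shCtr CPM in each same-numbered comparison (open symbols) and the fitted Log2FC with its SE (red diamonds, edgeR, n = 3 per group). The squares of replicate 2 reach -3.01 for Fasn and -2.79 for Scd2, while the comparisons of replicates 1 and 3 lie, for all members, between -0.96 and 0.32.

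Leaving out shOSGEP replicate 2 alone gave a median Log2FC of -0.30 over the members, with 6 of the 10 lower. Leaving out shCtr replicate 2 alone gave -0.53 with 10 of the 10 lower, and leaving out both gave -0.18 with 9 of the 10 lower. The medians of all genes in these fits were -0.0064, -0.0015 and -0.0062. Without both, shCtr and shOSGEP values were apart for 3 members (Elovl6, Scd1 and Scd2), a state reached by 20.7% of all genes with 2 libraries against 2. No member passed the threshold of the study in any of these 3 fits. The only fit without a library in which a member passed it was that without shOSGEP replicate 3, where Fasn had a Log2FC of -1.85 and an unadjusted p of 0.0411 in edgeR, against 0.885% of all genes called lower.

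**Figure D3:**
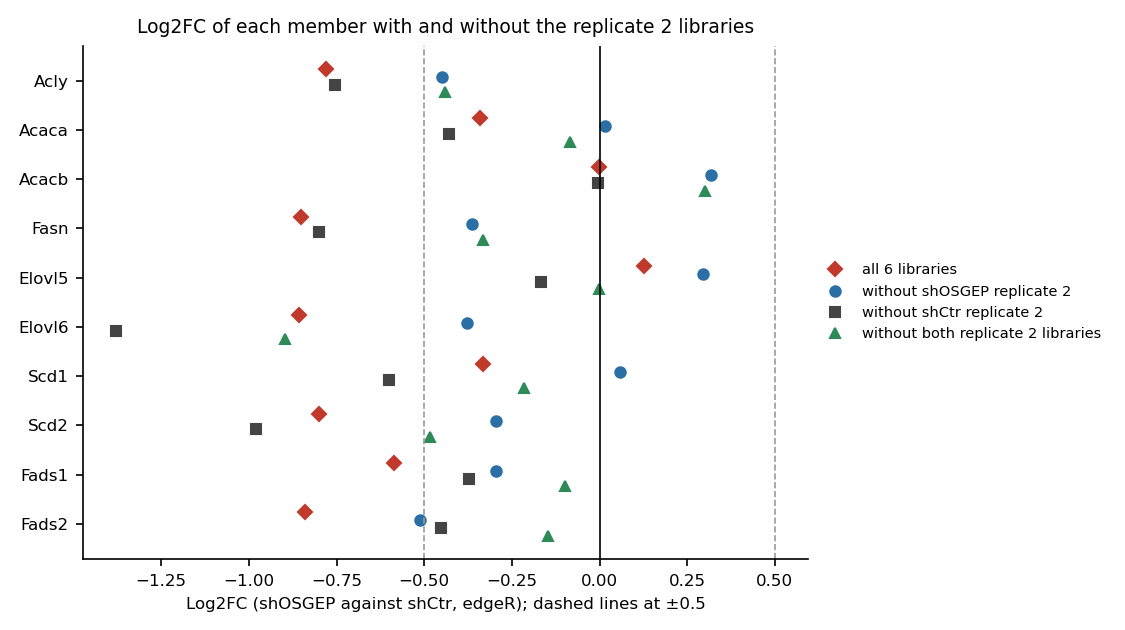
Log2FC of each member (edgeR) fitted on all 6 libraries and without replicate 2 of shOSGEP, of shCtr or of both. Dashed lines mark the Log2FC limits of 0.5 and -0.5 used by the study. Without both libraries Elovl6 is the one member beyond -0.5, at -0.90.

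With the replicate number as a block in edgeR, 0 of the 10 passed either threshold and the median Log2FC was -0.64. Calls were made where libraries were weighted by their quality. Limma-voom, a linear model of log2 CPM, with sample quality weights and no block called 1 member, Acly, at the threshold of the study (Log2FC -0.71, unadjusted p = 0.0474 in limma), against 1.07% of all genes called lower, and 0 members at an adjusted p under 0.05. In limma-voom with sample quality weights and the replicate block, Elovl6 (Log2FC -0.90, adjusted p = 3.96e-08), Acly (-0.48, adjusted p = 0.0191), Scd2 (-0.50, adjusted p = 0.0259) and Fasn (-0.45, adjusted p = 0.0329) reached an adjusted p under 0.05, against 4.34% of all genes called lower. At the threshold of the study this fit called 2 members, Elovl6 and Scd2, against 3.92% of all genes called lower. It weighted both replicate 2 libraries at 0.112 and 0.113 and both replicate 1 libraries at 4.54 and 4.60, so it rests mainly on replicate 1. With the block, the libraries of a pair deviate from the fit in mirrored ways, so near-equal weights within a pair follow from the design. The p-values of this fit thus hold little of the spread between infections, and 1403 of all genes had an adjusted p under 0.05 in it. Acaca, Acacb and Elovl5 had positive values in this fit, at 0.01, 0.25 and 0.05.

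Part of the library differences followed GC content and transcript length. In shCtr replicate 2 the trend of all genes on these properties placed Elovl6 at -1.72 from its mean on the log2 scale, Elovl5 at -1.06 and Acaca at -0.91, and Fads2 at 0.47. In shOSGEP replicate 2 the trend was -0.82 for Fasn, -0.74 for Acacb and -0.62 for Acaca. With offsets for this trend, the groups no longer overlapped for 3 members, Acly, Scd2 and Fads2, against 12.6% of all genes. Acly was then at 458, 557 and 574 CPM in shCtr against 317, 186 and 433 CPM in shOSGEP, and Scd2 at 1861, 2177 and 2160 CPM against 1294, 271 and 1610 CPM. Fads2 was at 296, 395 and 323 CPM against 250, 113 and 288 CPM. With these offsets no member passed either threshold, and with the replicate block added, Acly (Log2FC -0.84, unadjusted p = 0.0412 in edgeR) and Elovl6 (-1.09, unadjusted p = 0.00536 in edgeR) passed that of the study, as did 2.89% of all genes on the lower side.

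Per length, Scd2 was the most abundant of the enzymes and Acacb the least. In CPM per kilobase of the main transcript, the shCtr means were 378 ± 98.8 for Scd2, 123 ± 22.7 for Acly, 118 ± 49.3 for Fads2, 78.0 ± 30.6 for Fasn and 50.6 ± 13.7 for Fads1 (SD, n = 3). They were 39.6 ± 14.97 for Scd1, 24.2 ± 10.3 for Elovl5, 17.2 ± 5.06 for Acaca, 10.5 ± 9.03 for Elovl6 and 1.33 ± 0.394 for Acacb. The order of the means was the same in shOSGEP, from 217 ± 155 for Scd2 to 1.33 ± 0.745 for Acacb. Among neighbours in this order, the library values were apart between Scd2 and Acly in shCtr and between Elovl5 and Acaca in shOSGEP, and all other neighbours overlapped. With the length of merged exons in place of the main transcript, Scd2 stayed the highest and Acacb the lowest, and 10 of the 20 ranks differed.

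The members together took 0.427%, 0.275% and 0.563% of all counts in shCtr and 0.348%, 0.0914% and 0.423% in shOSGEP. Scd2 alone made up 53.4%, 37.9% and 48.0% of the members' counts in shCtr and 50.6%, 25.6% and 44.0% in shOSGEP. Replicate 2 gave the lowest value of each group on both measures.

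Ratios between related enzymes within a library do not depend on how libraries are scaled, but they can carry the trend on GC content and length. In shCtr replicate 2 this trend was -0.90 for Scd1 and -0.52 for Scd2, and -1.06 for Elovl5 and -1.72 for Elovl6. In shOSGEP replicate 2 it was -0.19, -0.31, 0.15 and -0.35 for the same genes. The part of this trend in the ratios was not tested. Scd2 had 10.2, 13.3 and 10.1 times the counts of Scd1 in shCtr and 7.73, 3.66 and 9.14 times in shOSGEP, so the groups did not overlap. The log2 ratio of Scd1 to Scd2 was -3.48 ± 0.225 in shCtr and -2.67 ± 0.703 in shOSGEP (SD, n = 3). The difference of 0.80 gave p = 0.1 in the exact permutation test (two-sided), the smallest p it can reach, and an adjusted p of 0.4 over the 4 ratios compared. The same-numbered differences were 0.41, 1.86 and 0.14, the difference was 0.40 without shOSGEP replicate 2, and without replicate 2 in both groups, chosen after seeing the data, it was 0.27. Replicate 2 thus held the largest and replicate 3 the smallest shift in the mix of the 2 desaturases.

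For the other ratios the groups overlapped. Fads1 to Fads2 differed by 0.25 (exact permutation p = 0.3), Elovl5 to Elovl6 by 0.82 (exact permutation p = 0.5) and Acaca to Acacb by -0.34 (exact permutation p = 0.3). Elovl5 to Elovl6 was higher in shOSGEP in each same-numbered comparison, by 1.10, 0.78 and 0.57, but its 3 shCtr libraries ranged from -0.30 to 2.12. Replicate 2 gave the highest Elovl5 to Elovl6 ratio of each group. Without replicate 2 in both groups the differences were 0.07 for Fads1 to Fads2, 0.84 for Elovl5 to Elovl6 and -0.33 for Acaca to Acacb. Elovl5 to Elovl6 differed by 0.10 without shOSGEP replicate 2 alone and by 1.55 without shCtr replicate 2 alone.

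**Figure D4:**
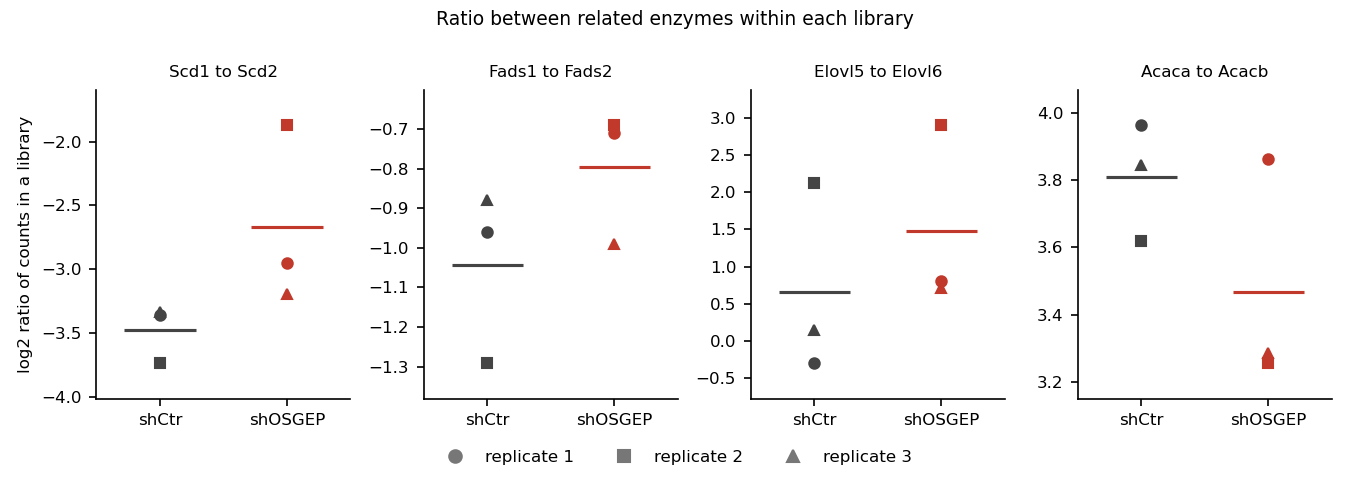
Log2 ratio of counts between related enzymes within each library, for shCtr and shOSGEP. Points are libraries, the symbol gives the replicate number and bars are group means (n = 3). The groups are apart in the Scd1 to Scd2 panel, where shOSGEP replicate 2 lies at -1.87, and overlap in the other panels.

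The members had a longer median transcript than all tested genes and an ordinary base composition. Their main transcripts ranged from 2782 bases (Elovl5) to 10050 bases (Fasn), with a median of 5144 bases against 2918 bases over all tested genes. GC content ranged from 44.0% (Elovl6) to 57.9% (Fasn), with a median of 50.8% against 50.3%. Codons that start with A, which t6A-bearing tRNAs read, made up 22.1% (Fasn) to 28.8% (Elovl5) of the coding sequence. Their median of 27.4% lay beside 27.0% over all tested genes, whose quartiles were 23.6% and 29.8%. The share was lowest in Fasn and Fads1, below the lower quartile, and no member lay above the upper quartile.

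The genes around the pathway were described by lists of the same kind. Of the genes that supply acetyl-CoA and NADPH, 0 of 7 passed the threshold of the study, 6 were lower in shOSGEP and the median Log2FC was -0.55. The 3 with the smallest p were Pgd (-0.96, SE 0.628), which makes NADPH in the pentose phosphate pathway, Slc25a1 (-0.96, SE 0.696), which exports citrate from mitochondria, and Cs (-0.55, SE 0.472), citrate synthase. Without replicate 2 their values were -0.04, 0.06 and -0.09, and the median of the list was -0.05.

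Of the regulators of lipogenic transcription and of acetyl-CoA carboxylase, 16 of 18 were tested, 5 were higher and 11 lower in shOSGEP, 0 passed the threshold of the study and the median Log2FC was -0.25. Srebf2, which encodes an SREBP that acts on sterol synthesis, had shCtr levels of 222, 403 and 336 CPM and shOSGEP levels of 197, 124 and 293 CPM, with a Log2FC of -0.64 (SE 0.467). Srebf1, whose product acts on the genes described here, was at 74.2, 118 and 101 CPM and at 87.0, 53.9 and 105 CPM, with a Log2FC of -0.25 (SE 0.423). The groups overlapped for both, with replicate 2 the highest of shCtr and the lowest of shOSGEP. Insig1, which retains SREBPs in the endoplasmic reticulum and is itself one of their targets, had a Log2FC of -0.19 (SE 0.595), with same-numbered log2 ratios of -0.44, 0.89 and -0.37. In replicate 2 it thus went the other way from 9 of the 10 members. Usf2 (-0.80, SE 0.527), an E-box factor, and Nr1h2 (-0.85, SE 0.707), a liver X receptor, completed the genes with the smallest p in this list. Without replicate 2 the values were -0.18 for Srebf2, 0.14 for Srebf1, -0.41 for Insig1, -0.16 for Usf2 and 0.07 for Nr1h2, and the median of the list was -0.01.

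Among other elongation and desaturation genes, 13 of 15 were tested, 6 were higher and 7 lower in shOSGEP, and the median Log2FC was -0.15. The threshold of the study was passed by 2 genes, both higher in shOSGEP and both of low abundance. Over all 12669 genes tested, 202 were called higher at this threshold. Elovl3, an elongase of very long saturated chains, had 6, 4 and 5 counts in shCtr and 18, 58 and 18 counts in shOSGEP (Log2FC 2.47, SE 0.681, unadjusted p = 0.00636 in edgeR). Fads3, a further gene of the fatty acid desaturase family, had a mean of 0.771 CPM in shCtr and 4.94 CPM in shOSGEP (Log2FC 2.67, SE 0.898, unadjusted p = 0.0171 in edgeR). Neither reached an adjusted p under 0.05 in this test. Of the 31-base words of the Fads2 transcript, 24 or 0.769% are shared with Fads3. Hacd4, a dehydratase of the elongation cycle, had a Log2FC of 1.56 (SE 0.708). Like Elovl3 and Fads3, it had groups that did not overlap, against 6.36% of all genes apart in either direction. Elovl3 met the filter for testing only through its shOSGEP libraries, the group in which it was higher. Fads3 and Hacd4 had 9 and 6 counts in shCtr replicate 2, so their shCtr libraries alone did not meet the filter, while their shOSGEP libraries did. All these genes were thus admitted to the test through the group in which they were higher, which limits what their calls show. None of these genes was tested in the fit that required at least 10 counts in every library. Hacd4 missed the threshold of the study in this test and passed it in DESeq2 (unadjusted p = 0.0343), with the offsets (unadjusted p = 0.0182 in edgeR) and without shCtr replicate 1 (Log2FC 2.10). In limma-voom with quality weights and the replicate block the adjusted p was 0.000313 for Elovl3, 0.00567 for Fads3 and 0.0127 for Hacd4. Without replicate 2 the Log2FC of Elovl3, Fads3 and Hacd4 was 1.70, 1.05 and 0.86, and the median of the list was 0.11. Fads3 then missed the threshold of the study, with an unadjusted p of 0.152 in edgeR. It also missed it without shOSGEP replicate 2 alone (Log2FC 1.33) and without shCtr replicate 3 (Log2FC 2.48), and Elovl3 missed it without replicate 3 (Log2FC 2.74). With GC and length offsets and the replicate block Fads3 missed it as well (Log2FC 2.28).

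Downstream, 15 of 17 genes of acyl-CoA activation and glycerolipid synthesis were tested, 6 were higher and 9 lower in shOSGEP, 0 passed the threshold of the study and the median Log2FC was -0.11. Dgat1, which makes triglyceride, had a Log2FC of -0.71 (SE 0.573), Agpat2 of -0.55 (SE 0.577) and Dbi, an acyl-CoA binding protein whose groups did not overlap, of -0.39 (SE 0.383). Without replicate 2 these were 0.09, 0.09 and -0.39, and the median of the list was -0.02. Of the genes of fatty acid uptake and oxidation, 14 of 17 were tested, 4 were higher and 10 lower in shOSGEP, 0 passed the threshold of the study and the median Log2FC was -0.20. Fabp5, a carrier of fatty acids in the cytosol, had shCtr levels of 513, 621 and 531 CPM and shOSGEP levels of 332, 231 and 378 CPM. Every shOSGEP library lay below every shCtr library for Fabp5, at a Log2FC of -0.82 (SE 0.402, unadjusted p = 0.0732 in edgeR). Fabp5 passed the threshold of the study in limma-voom with quality weights (Log2FC -0.63, unadjusted p = 0.0244). With the replicate block in edgeR, Fabp5 passed the threshold of the study (Log2FC -0.85, unadjusted p = 0.0456). With GC and length offsets it passed without the block (unadjusted p = 0.0398 in edgeR) and not with it (unadjusted p = 0.0618 in edgeR). In limma-voom with quality weights and the replicate block the adjusted p was 0.00143 for Fabp5, 0.029 for Dbi (Log2FC -0.45) and 0.0485 for Insig1 (Log2FC -0.40). The other genes with the smallest p in this list were Slc27a4 (-1.09, SE 0.612), a fatty acid transporter, and Hadha (-0.39, SE 0.420), a subunit of the mitochondrial trifunctional protein. Slc27a4 passed the threshold of the study without shCtr replicate 1 (Log2FC -1.43). Without replicate 2 the values were -0.55 for Fabp5, 0.03 for Slc27a4 and -0.10 for Hadha, and the median of the list was 0.01.

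**Figure D5:**
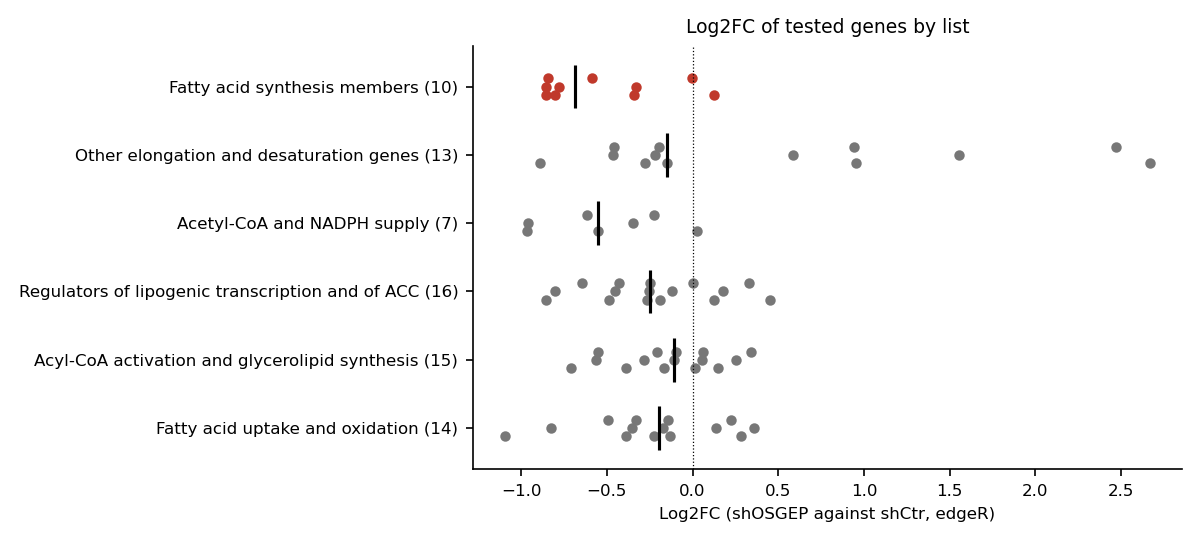
Log2FC (edgeR) of each tested gene by list, with the number tested in parentheses and the median as a black line. The members (red) have a median of -0.68, the supply genes of -0.55 and the remaining lists between -0.25 and -0.11, and the points beyond 2 are Elovl3 and Fads3. All medians here include replicate 2, without which that of the members is -0.18.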

How the data were processed

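RNA of B16F10 cells was measured in 6 libraries, with 3 shCtr and 3 shOSGEP infections. The labels and methods give 500 ng of total RNA, a TruSeq polyA kit that was not stated to keep the strand, and paired reads of 100 bases. The values deposited by the authors are estimated counts of each Ensembl gene, all whole numbers, from STAR 2.6.1d and Salmon 1.4.0 on GRCm38, with no normalization. The annotation release is not given in the sources used here. The submitters' processing notes also name edgeR 3.14 and DESeq2 1.30.

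Counts were filtered by filterByExpr (minimum count 10, minimum total 15), scaled by TMM and tested by edgeR's quasi-likelihood F-test without a block (edgeR 4.0.16, R 4.3.3, two-sided, Benjamini-Hochberg over all 12669 genes tested). SE is the Log2FC divided by the square root of F. Single values were compared by exact permutation tests of mean log2 CPM. A floor of 3 counts equals 0.116 to 0.147 CPM and covers counting error only. Levels per length used main transcripts of GENCODE M21 (GRCm38), and GC and length offsets used splines with 5 degrees of freedom.

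The deviations of same-numbered libraries from their group means correlated at 0.811, 0.557 and 0.196 for replicates 1, 2 and 3. All exceed 0.1, so the number was treated as pairing the libraries in the same-numbered comparisons and in the replicate block. The edgeR test without a block and the exact permutation tests did not use this pairing. The number comes from the labels, which do not state what it marks.

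Named genes were all 10 members, the 3 tested genes with the smallest unadjusted p in each of 5 other lists, Srebf1, Srebf2, Insig1 and Osgep. The members, lists and alternatives were chosen with earlier results of these data known. The alternatives were DESeq2 1.42.0, limma-voom (limma 3.58.1) with weights for sample quality, scaling by RLE or upper quartile, other filters, the replicate block, the offsets and leaving libraries out. The ratios without replicate 2 were added after seeing the data. The fit was tested on simulated data.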

Additional observations from a re-analysis of the deposited data

How the results depend on the processing

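With 3 libraries per group, SEs of the members' Log2FC lay between 0.449 and 0.954, so differences of that size could not be told from the spread. The exact permutation test cannot go below 0.1, and groups of 3 were too small for a test of single outlying libraries. Acaca, with 56.8% of its 31-base words shared with other transcripts, has an uncertain share of its reads. Fewer words were shared for Scd1 (8.30%), Scd2 (6.86%) and Elovl6 (7.06%), so this uncertainty covers a smaller part of their transcripts.

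The median Log2FC of the members stayed negative in all 19 alternative fits, from -0.86 to -0.18, and between 6 and 10 members were lower. No member passed the threshold of the study except in 4 of these fits. These were limma-voom with sample quality weights (1 member), the same with the replicate block (2 members, with 4 at an adjusted p under 0.05), GC and length offsets with the replicate block (2 members) and, over the fits leaving out libraries, 0 to 1 member. In edgeR on all 6 libraries without a block, an adjusted p threshold of 0.1 gave 0 members. Without overlap between groups were 3 members with GC and length offsets, against 12.6% of all genes, and 0 to 3 when libraries were left out, against 9.20% to 23.6% of all genes.

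Over all genes, the threshold of the study was passed by 560 with quality weights, 1442 with quality weights and the replicate block, 599 with no filter beyond 1 count, 688 with the offsets, 859 with the offsets and the replicate block, and 67 to 453 when libraries were left out (67 without shOSGEP replicate 2, 453 without shCtr replicate 1, 390 without shOSGEP replicate 3, 167 without shCtr replicate 3 and 163 without replicate 3), against 256. With the replicate block alone, for which the pairing is given under the processing, 373 genes and 0 members passed. The cause of these shifts was not tested.

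Signs turned for 4 members and 7 other named genes, and the list medians that turned without replicate 2 are given with their lists. With quality weights the Log2FC was -0.00286 for Elovl5, 0.0123 for Nr1h2, 0.13 for Dgat1 and 0.0713 for Agpat2, and with the replicate block added 0.00553 for Acaca, 0.25 for Acacb, 0.0131 for Dgat1 and 0.16 for Srebf1. Acacb was at 0.10 with upper-quartile scaling, 0.0088 with no filter, 0.0407 with at least 10 counts in every library, 0.0756 with the offsets and 0.0674 with offsets and the replicate block. Elovl5 was at -0.20 with the offsets and -0.21 with offsets and the replicate block, and Insig1 at 0.0205 with the replicate block. Leaving out libraries gave -0.60 to 0.41 for Insig1, -0.21 to 0.45 for Elovl5, -1.48 to 0.17 for Slc25a1, -1.25 to 0.34 for Nr1h2, -1.01 to 0.17 for Dgat1, -0.86 to 0.28 for Agpat2, -0.55 to 0.32 for Acacb, -0.70 to 0.0156 for Acaca, -0.60 to 0.0575 for Scd1, -1.62 to 0.0263 for Slc27a4 and -0.48 to 0.14 for Srebf1.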
